A study of Mus musculus with 5 samples.

Results

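The 7SK, 7SL, RNase P, RNase MRP and telomerase RNAs were examined in Surface-seq libraries of EL4, a mouse T lymphoma cell line. The genes were chosen by symbol (Rn7sk, Rn7s1, Rn7s2, Rpph1, Rmrp and Terc), and the 6 symbols matched 7 of the 55385 identifiers in the count tables, because Rmrp has 2. In Surface-seq, plasma membrane of the cells is purified and wrapped around polymer cores, and the RNA of these membrane-coated nanoparticles (MCNPs) is sequenced. In variation A (libraries A1, A2 and A3), RNA was taken from the MCNPs with phenol-chloroform before any adaptor was added. In variation B (B1 and B2), the 3′ adaptor was joined to RNA on the intact MCNPs, and the RNA was purified afterwards. The comparison of B with A asked which RNAs are more accessible from outside the particle relative to all membrane-associated RNA. Library preparation differs in several steps between the variations (end repair, clean-up and amplification), and these steps cannot be told apart from the side of the membrane. No source said that the libraries came from separate cultures, so p-values measure the spread between libraries, which may be technical. Values for single libraries are listed in the order A1, A2, A3 for variation A and B1, B2 for variation B.

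7SK is a small nuclear RNA that, in a particle with Larp7, Mepce and Hexim proteins, holds the kinase P-TEFb (Cdk9 with a cyclin T) inactive and so restrains elongation by RNA polymerase II. 7SL is the RNA core of the signal recognition particle, which carries ribosomes that make secreted and membrane proteins to the endoplasmic reticulum. Rpph1 is the catalytic RNA of RNase P, which trims the 5′ end of precursor tRNAs, and Rmrp is the related RNA of RNase MRP, which cuts precursor rRNA. Terc carries the template from which telomerase copies telomere repeats. These RNAs work in the nucleus, nucleolus or cytosol, and 7SL does so at the membrane of the endoplasmic reticulum.

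Reads with more than 1 alignment, and reads over more than 1 annotated gene, were left out of the counts, so the part of each RNA that could be counted was measured first. A stretch was called countable when it lay on no other annotated gene and its sequence was in no other annotated transcript. Rn7sk (chr9:78175303-78175633, GRCm38, minus strand, 331 bases, 1 exon) overlapped no other gene. Its first 241 bases were identical to a stretch of Gm24447, one of 34 annotated copies on other loci, and 80 of its 302 windows of 30 bases (26.5%) were countable. They lay in the 3′ part of the RNA, and bases 32 to 331 (chr9:78175303-78175602) are shown from 5′ to 3′ because nearly the whole signal described here comes from this gene, with the 109 bases that countable windows cover in capitals.
Rn7sk: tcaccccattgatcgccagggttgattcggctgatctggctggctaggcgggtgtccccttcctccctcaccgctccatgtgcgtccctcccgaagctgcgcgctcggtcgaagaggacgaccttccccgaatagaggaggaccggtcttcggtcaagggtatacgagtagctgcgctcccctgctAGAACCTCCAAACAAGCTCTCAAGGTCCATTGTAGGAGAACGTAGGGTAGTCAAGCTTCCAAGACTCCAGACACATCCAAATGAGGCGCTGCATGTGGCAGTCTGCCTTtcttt

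Rpph1 (chr14:50807449-50807767, minus strand, 319 bases) shared its bases 36 to 268 with an exon of Ccnb1ip1 on the same strand. That left 35 bases at its 5′ end and 51 at its 3′ end, and 28 of 290 windows of 30 bases (9.66%) were countable. With windows of 50 bases, 2 of 270 were countable, all of them at the 3′ end. Both ends are shown, since reads inside the RNA count only there, with the bases on no other gene in capitals: the first is chr14:50807708-50807767 and the second is chr14:50807449-50807519.
Rpph1 5′ end: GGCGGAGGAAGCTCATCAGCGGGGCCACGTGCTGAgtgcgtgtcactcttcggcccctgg
Rpph1 3′ end: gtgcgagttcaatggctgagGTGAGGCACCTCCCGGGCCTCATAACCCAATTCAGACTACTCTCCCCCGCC

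Rn7s1 (chr12:69159295-69159594, plus strand) and Rn7s2 (chr12:69361182-69361481, minus strand), the 7SL genes, were 100% identical over their 300 bases. No window of 20, 30, 40 or 50 bases of either gene was countable, so a read wholly inside one gene matched the other as well. Both also overlapped a pair of predicted microRNA genes, Gm47287 and Gm47295 for Rn7s1 and Gm47305 and Gm47299 for Rn7s2, which took 147 of the 300 bases of each.

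Rmrp was listed as a lincRNA of 281 bases (chr4:43492783-43493063, minus strand) and again as a ribozyme of 271 bases inside it (chr4:43492788-43493058). The ribozyme entry had no base of its own, and the lincRNA entry had 5 at each end. An exon of Ccdc107 on the other strand covered 124 bases of both, and the counting did not use strand. Terc (chr3:96414437-96414859, minus strand, 423 bases) shared 397 bases with a further identifier, ENSMUSG00000118406.1, whose ends are those that RefSeq gives for Terc on the same build. Terc kept 26 bases of its own at its 5′ end, none of which made a countable window of 30 bases, and 7 of its 404 windows of 20 bases were countable. The start of Terc (chr3:96414780-96414859) is shown with these 26 bases in capitals, and Rmrp is shown with its 2 own ends in capitals.
Terc 5′ end: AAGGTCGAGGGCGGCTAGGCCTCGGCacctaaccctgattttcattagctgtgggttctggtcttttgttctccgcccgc
Rmrp: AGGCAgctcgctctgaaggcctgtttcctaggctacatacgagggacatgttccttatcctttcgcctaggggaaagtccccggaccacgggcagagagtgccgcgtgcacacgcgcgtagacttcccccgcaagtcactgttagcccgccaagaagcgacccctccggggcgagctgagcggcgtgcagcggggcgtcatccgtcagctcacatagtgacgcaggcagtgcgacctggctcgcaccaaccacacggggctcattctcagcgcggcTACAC

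**Figure D1:**
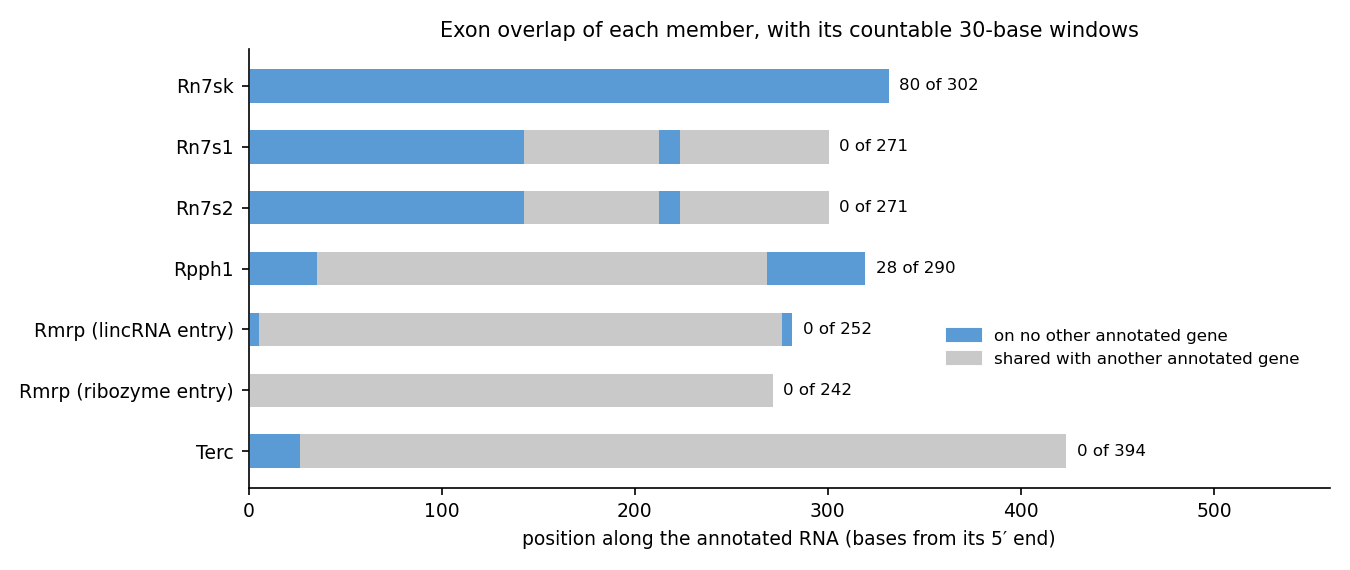
Each bar is 1 annotated member, drawn along its own bases from the 5′ end; blue bases lie on no other annotated gene and grey bases are shared with one, and the text gives how many of its 30-base windows were countable. Rn7sk has 80 of 302 and Rpph1 28 of 290, while both 7SL genes, both Rmrp entries and Terc have 0.

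Library totals were 1187117 to 4502174 counts in variation A and 21862003 to 22980172 in variation B, so 3 counts, the limit that a count of 0 allows, stood for 0.666 to 2.53 CPM (counts per 1000000 counts of the library) in A and 0.131 to 0.137 in B. Ribosomal RNA genes took 50.0 to 54.0% of counts in A and 23.0 to 24.2% in B. Spliceosomal snRNA genes took 12.1% in A2 and 13.1% in A3 but 0.847% in A1, which stood closer in this share to B1 (1.18%) and B2 (0.632%). CPM on the library total is used for levels, and CPM on the effective size from trimmed mean of M-values (TMM) scaling for the test, whose factors were 0.571 to 0.88 in A and 1.85 to 1.88 in B. Of 9 T cell markers, 8 were counted in each A library and 9 in each B library, with a summed level of 362 to 644 CPM in A and 1797 and 1804 CPM in B. The remaining marker, Trbc1, had 0 counts in A and 1 in each B library. Summed myeloid markers were at 0, 2.44 and 1.68 CPM in A and 4.48 and 5.79 CPM in B. B cell markers were at 0 CPM in each A library and at 0.503 and 0 CPM in B. Erythroid markers were at 0 CPM in each A library and at 0.274 and 0 CPM in B. Epithelial markers were at 0, 0.444 and 0 CPM in A and 0.0915 and 0.0870 CPM in B.

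The counts fell almost wholly on 1 member. Rn7sk held 85.7 to 95.7% of the members' counts in A and 97.7 to 98.3% in B, and Rpph1 held 4.10 to 12.8% in A and 1.68 to 2.32% in B. Together the members took 0.0818 to 0.127% of a library in A and 0.179 to 0.223% in B. In the edgeR quasi-likelihood test of B against A, 4 members passed the filter on low counts: 0 were called higher, where 11.0% of all 10287 genes tested were, and 3 (Rpph1, Rn7s1 and Rn7s2) were called lower, where 12.4% of all genes tested were. Rn7s1 and Rn7s2 are identical in sequence and passed the filter only through variation A, so their values had to be falls, and the 3 calls are not read against that share: only Rn7sk and Rpph1 could have come out either way. A gene was called when its adjusted p was below 0.05 and it differed by more than 2-fold, and no member had an unadjusted p under 0.05 with a rise. DESeq2 likewise called 0 higher and 3 lower, where it called 4.48% and 6.77% of 25327 genes.

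Rn7sk was among the most counted genes of every library. The A libraries gave it 2801, 3183 and 944 counts, and the B libraries 47626 and 40483. By counts it was gene 14, 29 and 26 from the top in A and gene 32 and 35 in B. Its level was 1217, 707 and 795 CPM in A and 2178 and 1762 CPM in B. On this scale both B libraries lay above all A libraries, with means of 906 ± 273 CPM (SD, n = 3) and 1970 ± 295 CPM (SD, n = 2).

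The order of the variations depended on the scale. With ribosomal RNA and mitochondrial genes left out of the totals, Rn7sk was at 2508, 1541 and 1730 CPM in A. It was at 2905 and 2388 CPM in B on that scale, so the groups overlapped. On TMM effective sizes, Rn7sk was at 1384, 1233 and 1393 CPM in A and at 1158 and 954 CPM in B, so that both B libraries lay below all A libraries. The log2 fold change of B over A was -0.34 (SE 0.37, derived from the test statistic; adjusted p = 0.522, edgeR quasi-likelihood test with Benjamini-Hochberg adjustment), which is not a call. On library totals it was 1.12 (adjusted p = 0.0528), while the median of all genes tested moved from 0.05 to 1.50. Relative to that median, Rn7sk differed by -0.38 in both fits. In bulk libraries such as these, fewer cells that give an RNA and less of it per cell cannot be told apart.

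**Figure D2:**
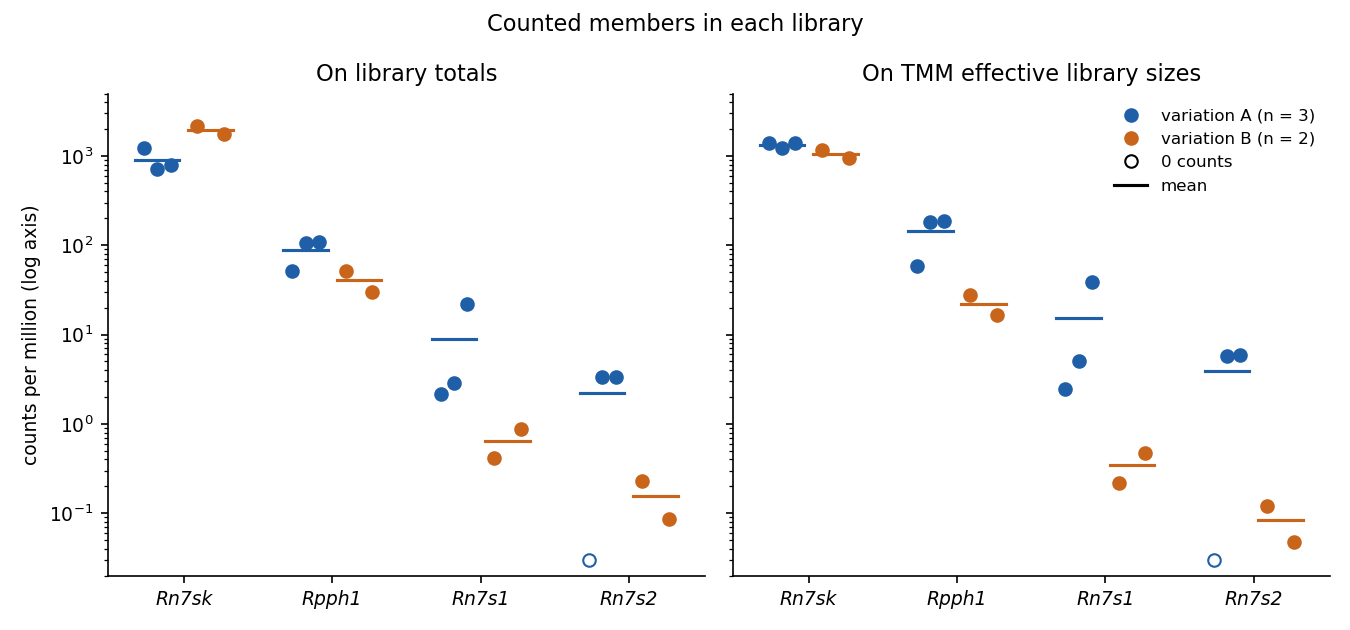
CPM of the 4 counted members in each library, on a log axis, with library totals on the left and TMM effective library sizes on the right; points are libraries, bars are group means, and the open point marks 0 counts and is drawn at the foot of the axis. For Rn7sk the B libraries lie above A on the left and below A on the right, while for Rpph1 and Rn7s1 they lie below A in both panels.

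The level of counted Rpph1 reads was lower in variation B. The A libraries gave Rpph1 120, 472 and 128 counts, and the B libraries 1129 and 694. Its level was 52.2, 105 and 108 CPM in A and 51.6 and 30.2 CPM in B. The groups did not overlap, although A1 exceeded B1 by less than their counting intervals (95% Wilson interval 43.6 to 62.4 CPM in A1 and 48.7 to 54.7 CPM in B1; such intervals cover counting error only). On TMM effective sizes the levels were 59.3, 183 and 189 CPM in A and 27.4 and 16.4 CPM in B, which separated A1 further from B.

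The log2 fold change of Rpph1 was -2.70 (SE 0.55, adjusted p = 0.0124, edgeR), and Rpph1 was lower in 2 of 2 B libraries than in any A library. On library totals it was -1.11 (adjusted p = 0.0763), which is not a call, though the difference from the median of all genes was -2.61 there and -2.75 with TMM. Leaving out A1, in which Rpph1 was lowest among the A libraries, gave -2.96, and leaving out B1 or B2 gave -3.14 and -2.39 with adjusted p = 0.0663 and 0.133. Since reads over Ccnb1ip1 were left out, these values describe the ends of the RNA, and Ccnb1ip1 itself had 0 counts in every library. The countable share of Rpph1 was 16% with windows of 20 bases and 0.741% with windows of 50. The counted level of Rpph1 can thus depend on read length, which is not given in the sources used, and this was not tested. Parp2, which starts 73 bases away on the other strand, had a log2 fold change of 0.40 (adjusted p = 0.544, edgeR).

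Ratios of counts within a library do not depend on scaling, but they can depend on read length. From windows of 20 to 50 bases the countable share of Rn7sk rose from 21.5 to 31.9%, while that of Rpph1 fell. The ratio of Rn7sk to Rpph1 was 23.3, 6.74 and 7.38 in A, and 42.2 and 58.3 in B. The variations did not overlap, and A1 stood between the other A libraries and B. On the log2 scale the ratio was 3.39 ± 1.00 (SD, n = 3) in A and 5.63 ± 0.33 (SD, n = 2) in B. Against the summed snRNA genes, Rn7sk stood at 0.144, 0.00585 and 0.00606 in A, and at 0.185 and 0.279 in B, so A1 was again nearer to B than to A2 and A3. Against the summed snoRNA genes the order was the opposite, at 0.390, 0.386 and 0.572 in A against 0.0433 and 0.0371 in B, with A1 beside the other A libraries. The snoRNA share thus moved with the variation, while the snRNA share set A2 and A3 apart from A1 and B, and their part in the members' values was not tested.

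**Figure D3:**
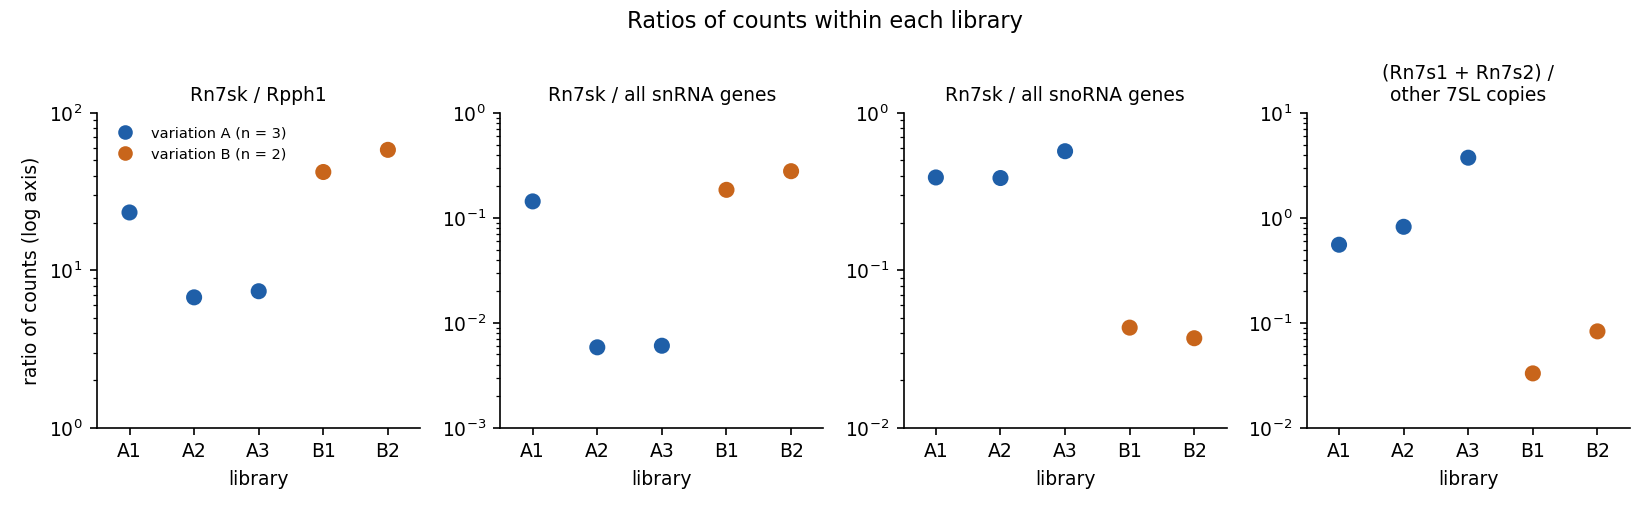
Ratios of counts within each of the 5 libraries, each panel on its own log axis; blue points are variation A and orange points variation B. Rn7sk over Rpph1 runs from 6.74 to 23.3 in A and from 42.2 to 58.3 in B, and A1 stands near B for the ratio to snRNA genes but not for the ratio to snoRNA genes.

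The 7SL genes had few counts. Rn7s1 had 5, 13 and 26 counts in A (2.17, 2.89 and 21.9 CPM) and 9 and 20 counts in B (0.412 and 0.870 CPM). All A libraries lay above both B libraries, and A3 stood far above the other A libraries (95% Wilson interval 14.9 to 32.1 CPM). Rn7s2 had 0, 15 and 4 counts in A (0, 3.33 and 3.37 CPM) and 5 and 2 counts in B (0.229 and 0.0870 CPM). A2 and A3 lay above B, but A1 lay at 0, below both B libraries, and its floor of 1.30 CPM is above the level in B.

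The log2 fold changes were -5.17 for Rn7s1 (SE 1.20, adjusted p = 0.0196) and -5.33 for Rn7s2 (SE 1.36, adjusted p = 0.0261, edgeR). The log2 fold changes stayed negative on library totals, at -3.62 and -3.72. Both genes passed the filter on low counts only through the A libraries, so a tested value had to be a fall. Without A3 the value of Rn7s1 was -3.37 (adjusted p = 0.0948), and with the libraries drawn down to the smallest total neither gene passed the filter. Under the replicate block, in which A3 has no partner and drops out, Rn7s2 had -4.43 (adjusted p = 0.0705). Given the identical sequences, the 2 values cannot be read as 2 genes, nor as the level of 7SL RNA.

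Counts on the other annotated 7SL copies are given beside those of Rn7s1 and Rn7s2. The 10 transcripts with at least 80% identity over at least 50% of Rn7s1 had 9, 34 and 8 counts in A but 424 and 265 in B. The most counted were Gm26461 (3, 20 and 2 counts in A, 161 and 110 in B) and Gm24105 (3, 1 and 0 in A, 123 and 76 in B). Summed, the copies were at 4.45, 13.2 and 11.8 CPM on TMM sizes in A and at 10.3 and 6.25 CPM in B, where the groups overlapped. On library totals they were at 3.91, 7.55 and 6.74 CPM in A and 19.4 and 11.5 CPM in B, where both B libraries lay above A. The ratio of Rn7s1 and Rn7s2 together to these copies was 0.556, 0.824 and 3.75 in A and 0.0330 and 0.0830 in B. Rn7s1 and Rn7s2 passed the filter only through A and had no countable window, and the copies had few counts in A. The ratio is therefore not read as a difference between the variations. For 7SK, the 34 copies had 9, 64, 9, 150 and 109 counts in the 5 libraries, against which Rn7sk had 311, 49.7, 105, 318 and 371 counts for each count on a copy. Of the 4 RNase P copies (Rprl1, listed under 2 identifiers, Rprl2 and Rprl3), 2 had a single count in 1 B library each.

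Rmrp and Terc had 0 counts in every library under each identifier. ENSMUSG00000118406.1, which covers the RefSeq span of Terc, also had 0. Ccdc107, which shares bases with Rmrp, had 5, 9 and 3 counts in A and 277 and 227 in B. A count of 0 allows up to 1.30, 0.666 and 2.53 CPM of countable reads in A, and 0.137 and 0.131 CPM in B. With no countable window of 30 bases in either RNA, the limit covers only reads that reach past the shared bases, and the zeros say nothing of how much of these RNAs the libraries held.

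The messenger RNAs of proteins that bind these RNAs were read as a background list. Of 38 such genes, 34 were tested, 2 were called higher and 2 lower, where 11.0% and 12.4% of all genes tested were. Their median log2 fold change of -0.33 stood beside 0.05 for all genes tested. Without A1 it was 0.06, with 18 of 35 partner genes above 0, beside 0.16 for all genes. On library totals it was 1.15, beside 1.50 for all genes. For the 7SK particle and P-TEFb, 1 of 9 genes tested was called: Ccnt1, which encodes cyclin T1, was at 42.0, 25.2 and 17.7 CPM on TMM sizes in A and 62.6 and 66.7 CPM in B (36.9, 14.4 and 10.1 against 118 and 123 CPM on library totals), with a log2 fold change of 1.15 (adjusted p = 0.0498, edgeR). That call was lost in 8 of 15 alternatives, over which its adjusted p ran from 0.000144 to 0.484. Ddx21, an RNA helicase and the most counted gene of this list, had a log2 fold change of 0.39 (adjusted p = 0.446), and on library totals it was called higher, at 1.76 (adjusted p = 0.0318); without A1 it was at 0.90 (adjusted p = 0.00152), under the 2-fold limit for a call. The list's median was 0.02.

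For the signal recognition particle and its receptor, 8 of 10 genes were tested and 1 was called in each direction. Srp14, whose protein binds the Alu domain of 7SL with Srp9, was at 12.4, 19.8 and 22.1 CPM on TMM sizes in A and at 133 and 134 CPM in B (10.9, 11.3 and 12.6 against 250 and 247 CPM on library totals). It rose by a log2 fold change of 2.92 (SE 0.33, adjusted p = 0.00146, edgeR) and was called in all 15 alternatives. Srp9 had a log2 fold change of 0.32 (adjusted p = 0.767). Srp68, which binds 7SL with Srp72, was at 64.7, 50.8 and 47.2 CPM on TMM sizes in A and at 26.7 and 18.6 in B, with a log2 fold change of -1.27 (adjusted p = 0.0255). On library totals its levels overlapped (56.9, 29.1 and 27.0 against 50.3 and 34.4 CPM) and the log2 fold change was 0.16, and the call was lost in 7 of 15 alternatives. Srp54c, had a log2 fold change of 1.71 (adjusted p = 0.176), and Srp54a and Srp54b were not tested.

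For RNase P and RNase MRP, 9 of 11 genes were tested, the median was 0.55 and 1 gene was called. Pop1, a protein subunit of both enzymes, was at 77.6, 72.5 and 64.9 CPM on TMM sizes in A and 28.6 and 34.1 CPM in B, with a log2 fold change of -1.20 (adjusted p = 0.0203, edgeR). On library totals its level was 68.2, 41.5 and 37.1 CPM in A and 53.8 and 62.9 CPM in B, which overlap, and the log2 fold change was 0.25. The call of Pop1 was lost in 9 of 15 alternatives. For telomerase and the H/ACA proteins, all 8 genes were tested and 0 were called, with 3 below an unadjusted p of 0.05 in edgeR (Wrap53, Gar1 and Nhp2) and 2 in DESeq2, which also called 0. Of all 10287 genes tested in edgeR, 4115 had an unadjusted p under 0.05, and 20.3% had one with a value below 0; in DESeq2, 18.7% of genes had one in either direction. Upper-quartile scaling called 1 of the 8 lower, where it called 14.4% of all genes lower, and leaving out A1 called 2 lower, where 1821 of 12127 genes were called lower. All 8 values were below 0, from -1.38 for Wrap53 to -0.31 for Tep1, the most counted, with a median of -0.86. On library totals all 8 were above 0, with a median of 0.60, and 1 was called higher, where 5654 of 10287 genes were. Tert, the reverse transcriptase of telomerase, had a log2 fold change of -0.92 (adjusted p = 0.196).

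**Figure D4:**
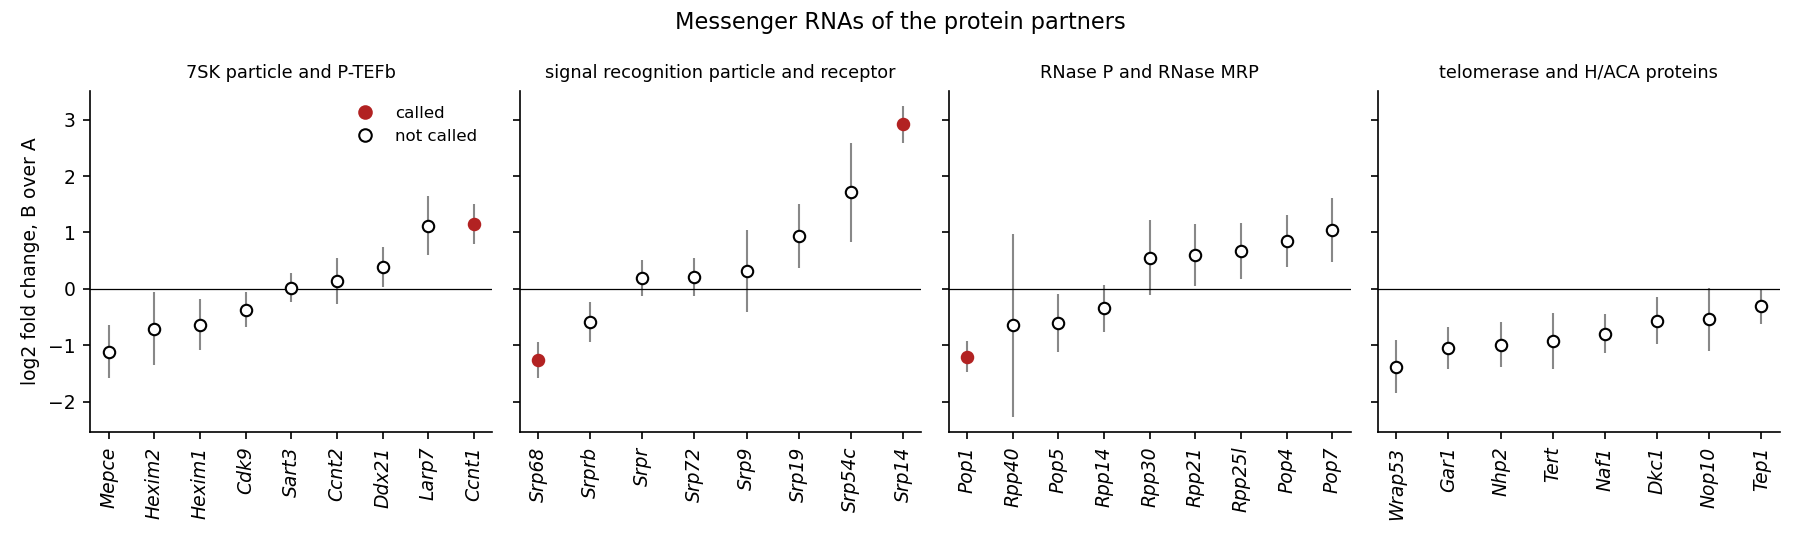
Log2 fold changes of variation B over A (points) with their standard errors (lines) for the 34 tested messenger RNAs of proteins that bind the members, in 4 complexes; filled points passed the call rule. Srp14 stands highest at 2.92, and all 8 telomerase and H/ACA genes lie below 0.

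Profiles most like those of the 2 well-counted members were found among 4598 other genes with at least 10 counts in every library, by the distance between centred log2 CPM profiles on TMM sizes over the 5 libraries. For Rn7sk these were N4bp1 (distance 0.149), E2f4 (0.164) and Ccna2 (0.191), where the median distance over all genes was 1.15. For Rpph1 they were Nop16 (0.330), Map1s (0.364) and Lrfn4 (0.386), with a median distance of 2.97. With 5 libraries in 2 groups, this likeness rests on few points. Of the 12 nearest annotated genes on either side of the members, 7 were tested, 2 were called higher and 0 lower, beside 11.0% and 12.4% of all genes tested. Nemf (4016 bases from Rn7s2) rose by a log2 fold change of 2.18 (adjusted p = 0.0313, edgeR) and Sit1 (9048 bases from Rmrp) by 4.63 (adjusted p = 0.000455), while Ick had 1.08, Parp2 0.40, Rps29 -0.08, Lrr1 -0.63 and Arhgef39, the other neighbour of Rmrp, -0.66, none of them called.

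**Figure D5:**
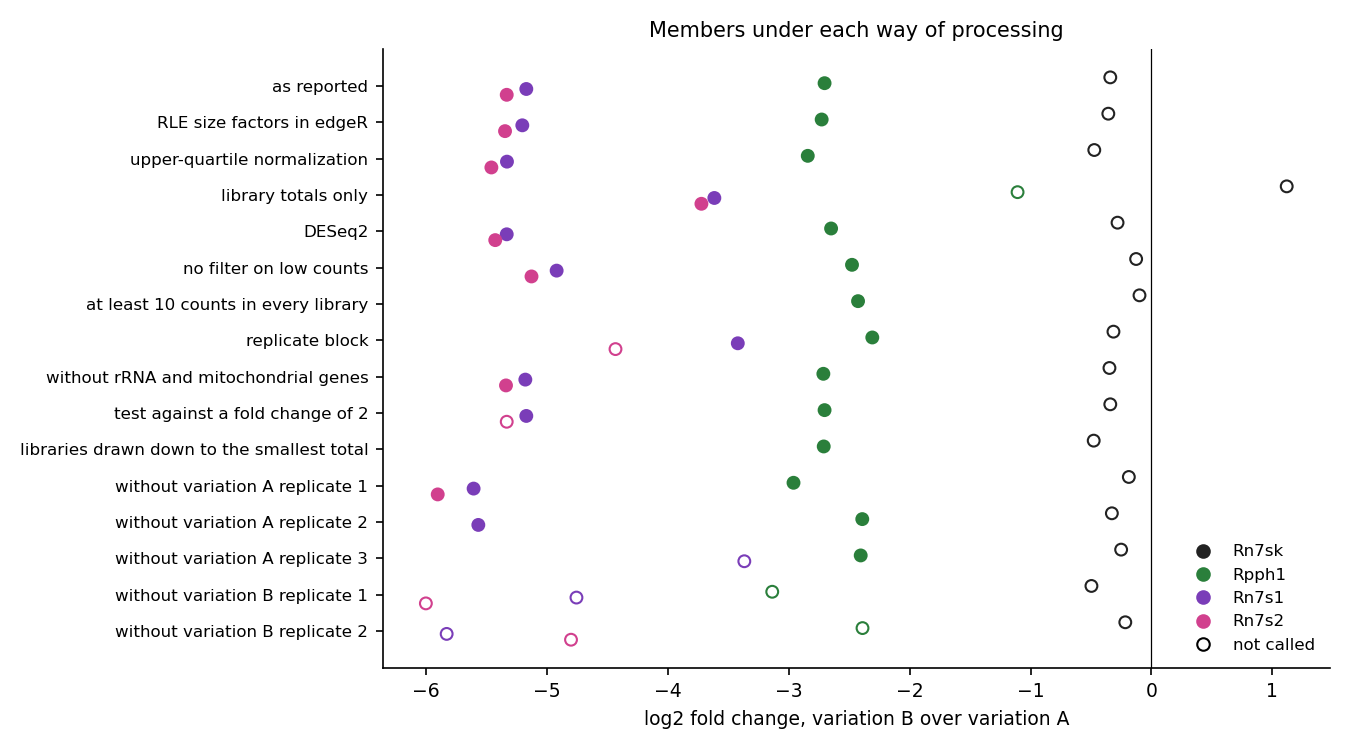
Log2 fold change of variation B over A for the 4 tested members under each way of processing; filled points passed the call rule and open points did not, and a missing point means that the gene did not pass the filter there. Rn7sk is open throughout and crosses 0 only on library totals (1.12), and Rpph1 stays between -3.14 and -1.11.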

How the data were processed

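RNA of membrane-coated nanoparticles from EL4 cells was sequenced in 3 variation A and 2 variation B libraries, grouped by the library names in the labels. The deposited values are counts per gene, which the authors made with Trimmomatic 0.36, STAR 2.7.3a and featureCounts 1.6.4 on GRCm38 and exons of GENCODE M24; multi-mapping reads were left out, as were reads that touched exons of more than 1 gene, strand was not used, and read length is not given in the sources used here. Depth was 1187117 to 22980172 counts per library. Symbols came from GENCODE M21 (55144 of 55385 identifiers matched), as did the transcript sequences, RefSeq positions (GRCm38) were compared, and copies were sought with blastn 2.17.0; copies outside annotated genes were not analysed here.

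The variations were compared by the quasi-likelihood test of edgeR 4.0.16 (R 4.3.3; filterByExpr filter, TMM scaling), and p-values of the 10287 tested genes were adjusted by the Benjamini-Hochberg method. Calls needed adjusted p below 0.05 and more than a 2-fold difference. Other scalings and filters, DESeq2 1.42.0, a replicate block and leaving out each library were tried. The test was tested on simulated data. Wilson intervals were computed at 95%. Named genes were all members, partner genes called or most counted in each complex, the 3 genes most like each well-counted member, overlapping or nearest genes, and the most counted copies; Tert, Srp9, Srp54c, Wrap53, Gar1 and Nhp2 were named after their values were seen. Members and lists were chosen with earlier results of these data known. A sequence of the 7SL genes is not reported here.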

Additional observations from a re-analysis of the deposited data

How the results depend on the processing

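Of the members, 0 were called higher in all 15 alternatives. Called lower were 3 genes, of which Rn7s1 and Rn7s2 could only come out lower where the filter on low counts was used. DESeq2 and the fit with no filter did not use it. They too called 3 members lower, where 6.77% and 3.50% of all genes were. With at least 10 counts in every library 1 member was called lower, where 722 of all 4599 genes tested were. With the libraries drawn down to the smallest total it was again 1, where 960 of all 7970 genes tested were. Only Rn7sk and Rpph1 could be tested under either setting. Leaving out A1, A2 or A3 gave 3, 2 and 1 members called lower. Over all genes, 1821 of 12127, 442 of 12149 and 466 of 12064 were called lower there. On library totals Rn7sk turned round to 1.12 and Rpph1 weakened to -1.11, Pop1, Srp68 and Tep1 turned round to 0.25, 0.16 and 1.17, and 16 partner genes were called higher and 0 lower; over all genes, 5654 were then called higher and 302 lower, against 1135 and 1276. Rn7s2 weakened in the test against a fold change of 2 (-5.33, adjusted p = 0.0613). Leaving out 1 library gave -3.14 to -2.39 for Rpph1, -5.83 to -3.37 for Rn7s1, -6.00 to -4.80 for Rn7s2 (not tested without A2 or A3), -0.50 to -0.19 for Rn7sk, and 1 to 7 partner genes higher and 0 to 5 lower, with 7 and 5 without A1, where 2526 and 1821 of all 12127 genes tested were called. The calls of Rpph1, Rn7s1 and Rn7s2 were each lost without B1 and without B2, where calls over all genes fell to 200 higher and 240 lower and to 161 and 137; the lone B library is then assumed to vary like the others. Partner genes called higher were 1 with upper-quartile scaling, in the test against a fold change of 2 and on drawn-down libraries. Of all genes, 9.29%, 2.81% and 10.2% were called higher there. Partner genes called lower were 0 with no filter, 1 with at least 10 counts in every library and 0 in the test against a fold change of 2. Of all genes, 3.50%, 15.7% and 3.77% were called lower there. With the replicate block, in which A3 drops out, Rn7s2 weakened to -4.43 and 1 partner gene was called in each direction; the block changed no other member's call and lowered the calls over all genes to 761 higher and 813 lower. Deviations of same-numbered libraries correlated at -0.10 for A1 with B1 and -0.03 for A2 with B2. With 2 B libraries, the deviations of B1 and B2 mirror each other (0.10 for A1 with B2), so these values cannot settle whether the numbers mark pairs. The numbers were not taken as pairs. Counts of the 7SL genes, at most 26 in any library, limit the precision there. The cause of these shifts was not tested.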
